A study of Homo sapiens with 6 samples.

Results

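The replication-dependent histone cluster genes encode the histones that package newly made DNA: the linker histone H1 and the core histones H2A, H2B, H3 and H4. They were chosen by symbol, as every gene of the deposited count table whose name starts with HIST1H, HIST2H, HIST3H or HIST4H. There were 73 such genes among 26485. They were measured in 6 polyadenylated RNA libraries of H9, an established human line that the labels give as a cutaneous T lymphocyte cell, from a study of a berbamine derivative in lymphoma. Libraries 1 to 3 of the control group came from cells given the vehicle DMSO, and libraries 1 to 3 of the PA4 group from cells given 1 µM of PA4, a compound known here by its code name. The labels give 24 h for both groups. Nothing in the labels states that the 3 libraries of a group are separate cultures, so every p-value given here reflects only the spread among these libraries and that spread may be technical.

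Most messenger RNAs end in a poly(A) tail, but those of the replication-dependent histone genes are known for ending just past a short stem-loop instead. Stem-loop binding protein (SLBP) holds that structure, and a complex with the U7 small nuclear RNA cuts the transcript behind it. The genes are transcribed mainly in S phase, under the coactivator NPAT, and sit in clusters with many near-identical coding sequences. Some of them also give transcripts with a conventional tail, which selection for poly(A) can retain. Replacement histones such as H2AFZ and H3F3B lie outside the clusters and give tailed messages through the cell cycle.

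The stem-loop sequences of 7 members are shown first, because they are the feature that sets these transcripts apart from tailed ones. They are the 6 members with the most counts among those with a match, and HIST1H4H, which has few counts, as an example of the form found in H4 genes. The letters GGNNCTTTTNAGNNCC, where N is any base, were searched on the sense strand of the GENCODE release 29 transcripts. They occurred in 31 of the 70 members with a protein-coding transcript (44.3%), and in 21 of 19599 other genes (0.107%). A match is a description of the letters, and a transcript that GENCODE ends at the stop codon has no window in which they could be found. Capitals mark the 16 matched bases and lower case the 7 bases on each side, 5′ to 3′ on the strand of the gene, in GRCh38.
HIST1H2BH (chr6:26252048-26252077, plus strand): acccaaaGGCTCTTTTCAGAGCCacttaat
HIST3H2A (chr1:228457362-228457391, minus strand): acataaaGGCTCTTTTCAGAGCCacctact
HIST2H2BE (chr1:149886181-149886210, minus strand): ctccaaaGGCTCTTTTCAGAGCCacccacc
HIST1H2BD (chr6:26158580-26158609, plus strand): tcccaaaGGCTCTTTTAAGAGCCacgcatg
HIST1H2BC (chr6:26123465-26123494, minus strand): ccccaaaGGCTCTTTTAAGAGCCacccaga
HIST1H2AG (chr6:27133508-27133537, plus strand): aaccaacGGCTCTTTTCAGGGCCacccacg
HIST1H4H (chr6:26285124-26285153, minus strand): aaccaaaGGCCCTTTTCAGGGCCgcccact

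The form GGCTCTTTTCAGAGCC was found in 17 members and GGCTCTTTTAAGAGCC in 5. All 8 H4 genes with a match had a stem beginning GGCCC, in the form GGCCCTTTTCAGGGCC for 5 of them, HIST1H4H included, and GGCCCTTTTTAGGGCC for 3. HIST1H2AG and the pseudogene HIST2H2BC carried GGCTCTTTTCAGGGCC. HIST1H2BK and HIST1H1C, which had the highest counts, are annotated in GENCODE by coding sequence alone, so neither the stem-loop nor a tail signal lay in the window searched.

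Several annotated transcripts run on past the stem-loop and end beside the hexamers that precede a poly(A) tail. AATAAA or ATTAAA lay in the last 40 bases of a protein-coding transcript in 22 of the 70 members (31.4%), against 15863 of 19599 other genes (80.9%). As with the stem-loop, a transcript that GENCODE ends at the stop codon leaves no window past the coding sequence. The lower share in the members thus depends on their annotation. In HIST1H4J, counted here, the AATAAA lies before the stem-loop. The annotated HIST1H2BH transcript continued 1640 bases past the stem-loop, that of HIST2H2BE 1729 bases and that of HIST3H2A 390 bases. The HIST1H2BD form with the stem-loop ended 39 bases past it, and its last 30 bases also held AATAAA. Below, capitals mark the hexamer within the last 30 bases of the transcript. For HIST1H2BD and HIST1H2BC the transcripts shown are alternatives that end elsewhere than the form with the stem-loop.
HIST1H2BH (chr6:26253681-26253710, plus strand): aattttttAATAAAaggtttttttaatgtc
HIST2H2BE (chr1:149884459-149884488, minus strand): gttattAATAAAgttaccaattaatttaaa
HIST3H2A (chr1:228456979-228457008, minus strand): tctgatATTAAAagtatttatgatctctaa
HIST1H2BD (chr6:26171320-26171349, plus strand): taattAATAAAatctgcggagaattgtaaa
HIST1H2BC (chr6:26114873-26114902, minus strand): agacaaaATTAAAataactcctagtatctc

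These genes were counted at a very low level. The 73 members together received 1086, 1009 and 884 counts in control replicates 1 to 3, and 1078, 1201 and 914 in PA4 replicates 1 to 3. Library totals lay between 18282212 and 22875191 counts, so the members held 0.00464% to 0.00564% of a library. Of the 73, 60 had at least 1 count, 44 had counts in all 6 libraries, and 11 reached 100 counts over the 6 libraries. The other 13 had no count. Where reads could be assigned to the gene, a count of 0 allows a level of up to 0.0252 CPM (counts scaled to the library total) over the 6 libraries, from a limit of 3 counts, but no limit can be given for genes with an identical copy. That limit and the Poisson intervals given here cover counting error only.

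H2B was the class with the most counts, at 54.7% of all member counts from its 20 genes. H1 followed with 18.6% from 6 genes, H2A with 17.1% from 18 genes, H4 with 5.36% from 15 genes and H3 with 4.31% from 14 genes. The 2 classes at the bottom make the core tetramer of the nucleosome, and a nucleosome holds as many H3 and H4 as H2A and H2B molecules. The shares do not measure that balance. They are not scaled to gene length, and they include genes with an identical copy, whose level is not known. HIST1H2BK alone gave 26.7% of all member counts. Counts were detected for 18 of 20 H2B, 14 of 18 H2A, 5 of 6 H1, 12 of 14 H3 and 11 of 15 H4 genes. Chromosome 6, the site of the large HIST1 cluster of 56 genes, gave 86.7% of member counts.

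**Figure D1:**
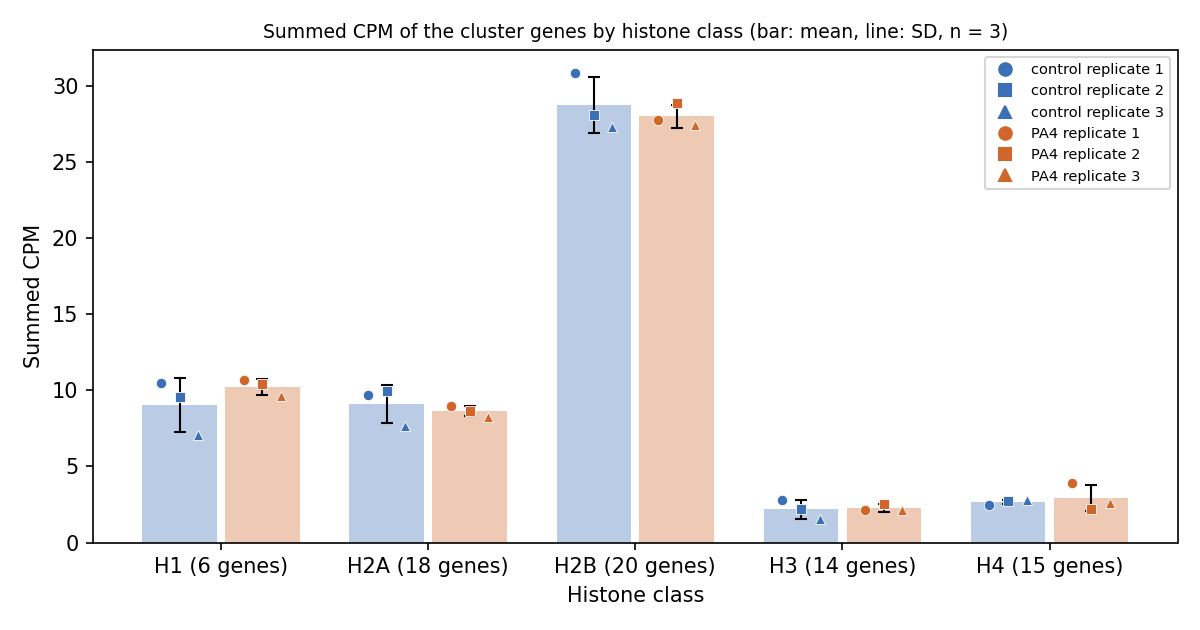
Summed CPM of the cluster genes (y axis) for each histone class (x axis, with its number of genes) in control and PA4 libraries; bars are means, lines the SD of 3 libraries and points single libraries. H2B stands highest in all 6 libraries, and control and PA4 points overlap in every class.

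A few genes held most of these counts. HIST1H2BK alone gave 26.7%, the 3 highest genes 50.8%, and the 10 highest 71.6%. HIST1H2BK (ENSG00000197903.7), an H2B gene, lies at chr6:27146418-27146798 on the minus strand. It had 246, 247 and 270 counts in the controls and 307, 329 and 251 with PA4. The 6 libraries differed by at most 1.19 times in CPM, the narrowest range among the 22 members tested, and the groups overlapped.

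HIST1H1C (ENSG00000187837.3, chr6:26055787-26056428, minus strand), a somatic linker histone gene, was second by counts. Its 6 values were 140, 145 and 127 in the controls and 172, 185 and 128 with PA4. HIST1H2BH (ENSG00000275713.2, chr6:26251651-26253710, plus strand), whose stem-loop and distal tail signal are printed above, had 131, 85 and 84 counts in the controls and 93, 113 and 81 with PA4. Its highest value in CPM was control replicate 1, and the other 5 libraries lay close together. HIST3H2A (ENSG00000181218.5, chr1:228456979-228457873, minus strand), an H2A gene of the small HIST3 cluster, had 76, 61 and 51 counts in the controls and 58, 69 and 55 with PA4. In all 3 genes the groups overlapped.

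The next H2B genes had far fewer counts than HIST1H2BK. HIST1H2BD had 36, 44 and 40 counts in the controls and 29, 45 and 33 with PA4. HIST2H2BE had 31, 27 and 22 against 22, 30 and 31, and HIST1H2BC had 24, 24 and 22 against 22, 30 and 29. Groups overlapped in each, and both HIST1H2BD and HIST1H2BC carry the stem-loop form with AA after the run of T. HIST1H2BJ had 16, 15 and 18 counts against 17, 19 and 6, with PA4 replicate 3 lowest.

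Among H2A genes, HIST1H2AG had 16, 26 and 12 counts in the controls and 21, 23 and 18 with PA4. HIST1H2AM had 15, 28 and 17 against 19, 18 and 18, and HIST2H2AC 16, 11 and 17 against 21, 14 and 17. The PA4 values of HIST1H2AG and HIST1H2AM lay inside the range of the controls in CPM. HIST1H2AE had 20, 15 and 15 counts in the controls and 23, 14 and 6 with PA4, so that both its highest and its lowest library were PA4 libraries.

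HIST1H1E, HIST1H1B and HIST1H4C were also tested, and their values are given with control replicate 3 below. The other 7 genes tested had fewer counts than those 3 and than the 12 described above. They were the H2B genes HIST1H2BN, HIST1H2BG, HIST1H2BL and the pseudogene HIST2H2BC, the H2A genes HIST1H2AC and HIST1H2AI, and the H3 gene HIST1H3H. No count of these 7 in any library was above 19. HIST1H3H was the only H3 gene, and HIST1H4C the only H4 gene, among the 22 members tested.

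The 38 members with counts that were too low to test had 1 to 56 counts each over the 6 libraries. In H3 these were 11 genes, from HIST1H3C with 56 counts, HIST1H3G with 31 and HIST1H3A with 25 down to HIST1H3E with 3 and HIST3H3 with 2, with HIST1H3B, HIST1H3D, HIST1H3F, HIST1H3I, HIST1H3J and HIST2H3D between. In H4 there were 10: HIST1H4E with 37 counts, HIST1H4A with 36, HIST1H4H with 33 and HIST1H4I with 31, then HIST1H4D, HIST4H4, HIST1H4L, HIST1H4K, HIST1H4J and HIST1H4B. H2B had 8, led by HIST2H2BF with 54 counts and HIST1H2BF with 43 and followed by HIST1H2BI, HIST3H2BB, HIST1H2BE, HIST1H2BO, HIST1H2BB and HIST1H2BM. H2A had 7, led by HIST1H2AL with 38 counts and followed by HIST1H2AJ, HIST1H2AH, HIST1H2AK, HIST1H2AB, HIST2H2AB and HIST1H2AD. In H1 they were HIST1H1D with 28 counts and the testis-specific HIST1H1T with 1.

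The 13 members without a count fell into unlike kinds. HIST2H4A and HIST2H4B (H4), HIST2H3A and HIST2H3C (H3), and HIST2H2AA3 and HIST2H2AA4 (H2A) are 3 pairs of twins on chromosome 1, and every 50-base stretch of coding sequence in each also occurs in its twin. For HIST2H4A and HIST2H2AA4 the length in the deposited table was 2 times the RefSeq gene length, and the 2 genes of each pair were listed with 1 shared length of 792, 1014 or 1068 bases. How reads that match more than 1 gene were counted is not given in the sources used here. Of the other uncounted genes, HIST1H1A (H1), HIST1H2AA (H2A), HIST1H2BA (H2B), HIST1H4F and HIST1H4G (both H4) share no such stretch with another gene. HIST1H2AA and HIST1H2BA are the testis-type H2A and H2B genes, and HIST1H2APS1 (H2A) and HIST2H2BA (H2B) are pseudogenes.

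Members also differed in how much coding sequence they share with other genes. Of the 70 protein-coding members, 8 had every 50-base coding stretch elsewhere and 15 counts in all. They were the 6 twins above plus HIST1H4J, with 7 counts, and HIST1H4K, with 8. Another 34 had no such stretch elsewhere and 2460 counts, HIST1H1C and HIST1H2BH among them. The 28 between held 3628 counts, and for these the values are uncertain where reads could fall to a near-identical copy. HIST1H2BK, the highest, had 73.9% of its coding stretches also in another gene, while HIST2H2BE had 52.9%. For HIST1H2BK, 61.1% were in H2BFS alone, a gene not found under that name in the deposited count table. Its closest member was HIST1H2BE, at 18.8%.

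Members with an annotated tail signal were not the only ones counted. The 23 protein-coding members with AATAAA or ATTAAA near the end of any annotated transcript held 34.4% of member counts, with 17 of 23 detected and a median of 37 counts. The 47 without it held 64.5%, with 42 of 47 detected and a median of 20 counts. HIST1H2BK and HIST1H1C, annotated without untranslated ends, are in the second set. GENCODE thus leaves the ends of HIST1H2BK and HIST1H1C undescribed, and the reads themselves were not analysed here. The listed length of HIST1H2BK was 839 bases, against 381 for its GENCODE transcript.

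H2A and H2B genes often stand head to head on opposite strands, sharing the space between their start sites. There were 12 such neighbours, 124 to 331 bases apart from start to start, and 10 had counts in both genes. Per kilobase of listed length, the H2A gene had more counts in 6 of the 10 and the H2B gene in 4. The H2B side was far higher in HIST1H2AH and HIST1H2BK, at 45.7 and 1967 counts per kilobase. The H2A side was higher in HIST3H2A and HIST3H2BB, at 746 and 68.6 counts per kilobase. In both of these pairs, 1 gene was near the top of its class and its neighbour had too few counts to test.

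Levels were compared between genes per length, as reads per kilobase of the authors' listed length, scaled to the library total (RPKM). The mean RPKM over 6 libraries was 16.5 for HIST1H2BK, 11.6 for HIST1H2BH, 10.3 for HIST1H1C and 6.28 for HIST3H2A. HIST1H2BC followed at 2.91, HIST1H4C at 2.83 and HIST1H2BD at 2.22. HIST1H1C stood above HIST3H2A, and HIST3H2A above HIST1H2BC, in 6 of 6 libraries. HIST1H2BK stood above HIST1H2BH, and HIST1H2BH above HIST1H1C, in 5 of 6. From HIST1H2BC downward, neighbours kept their order in at most 4 of 6 libraries, so that order is within the spread. HIST2H2BE, with more counts than HIST1H4C, stood lower per length at 0.620 RPKM, on a listed length of 2223 bases. The listed length of HIST1H2BH was 425 bases against 2060 for its GENCODE transcript, so its RPKM depends on which model its reads came from.

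Some replacement histones outside the clusters were measured at far higher levels in the same libraries. Only 8 of the 20 found in the table had enough counts to test. H2AFZ, the replacement H2A of promoters, had a mean of 572 RPKM and H3F3B, a replacement H3 gene, 196 RPKM. H1FX, a linker histone, stood at 29.6 RPKM and H2AFX, the H2A marked at DNA breaks, at 33.8 RPKM. H1F0, the linker histone of resting cells, had only 0 to 6 counts per library. H3F3A, which encodes the same protein as H3F3B, is listed at 0 in all 6 libraries, while its processed pseudogene H3F3AP4, a gene looked up after these values were seen, had 238 to 315 counts. How reads were shared between such copies is not given.

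**Figure D2:**
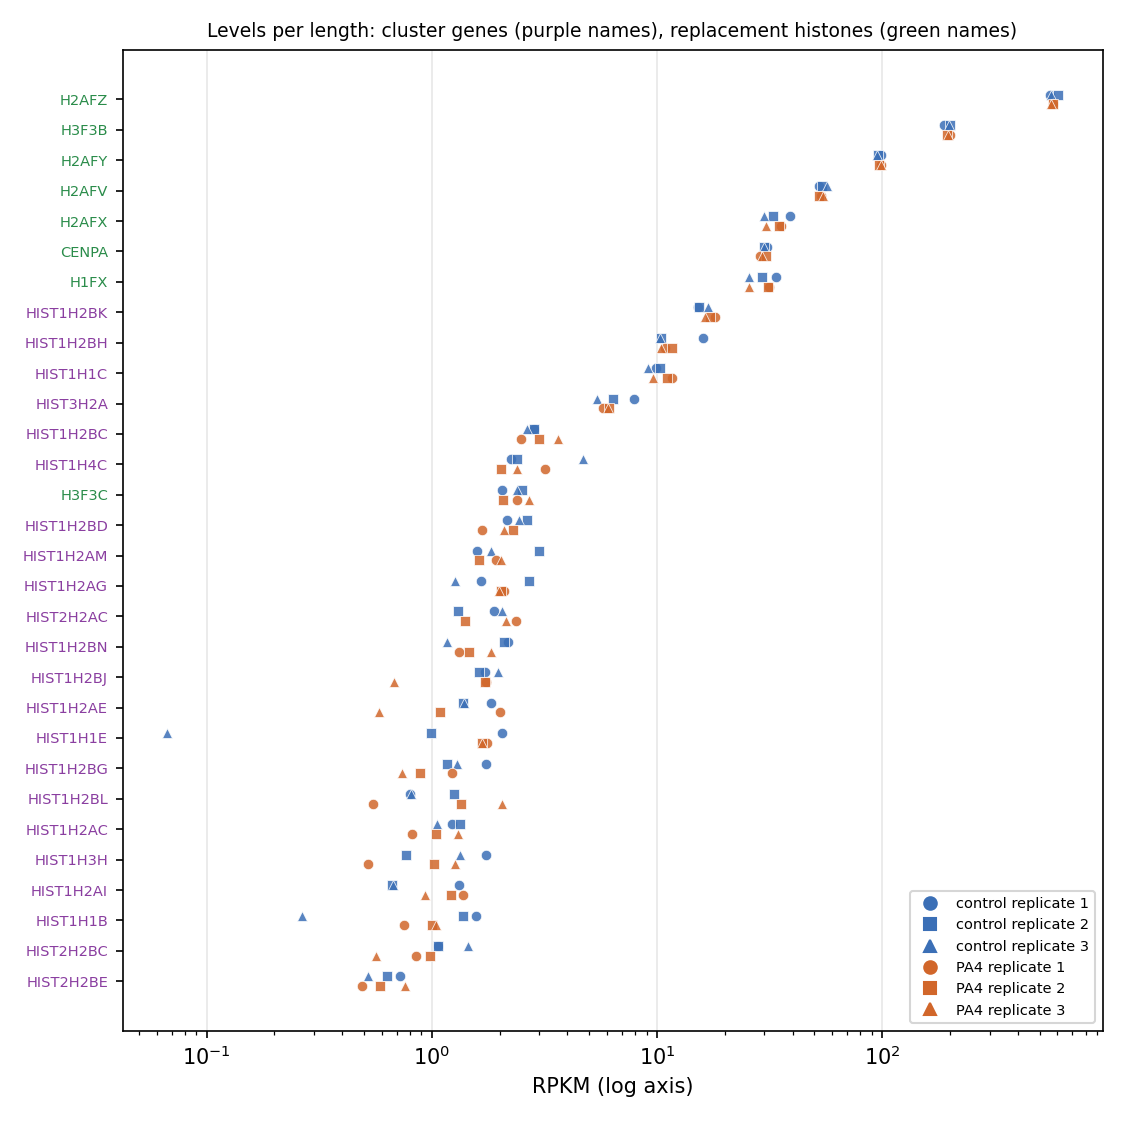
RPKM on a log axis (x) of the 22 tested cluster genes (purple names) and the 8 tested replacement histones (green names); each point is 1 library, coloured by group with a symbol for each replicate. H2AFZ and H3F3B stand far above HIST1H2BK, and HIST1H1E shows 1 control library far to the left of the other 5 libraries.

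Control replicate 3 stood apart from the other libraries in some members. Over all genes compared, control replicate 2 was closer to control replicate 3 than to control replicate 1. Chi-square per degree of freedom between 2 libraries was 2.77 for control replicates 2 and 3, and 3.36 for 1 and 2. It was 6.81 for control replicates 1 and 3, and 1.48 to 2.11 between PA4 libraries. HIST1H1E (ENSG00000168298.6, chr6:26156354-26157107, plus strand), another somatic linker histone gene, had 31 and 15 counts in control replicates 1 and 2 but 1 count in control replicate 3. With PA4 it had 28, 30 and 24 counts. The exact Poisson 95% interval of that 1 count runs from 0.0253 to 5.57 and that of 15 counts from 8.40 to 24.7, so the difference between these libraries exceeds counting error. HIST1H1B (ENSG00000184357.4, chr6:27866849-27867529, minus strand), also a linker histone gene, had 24, 21 and 4 counts in the controls and 12, 18 and 15 with PA4. Its 4 counts have an interval of 1.09 to 10.2, below that of either other control.

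HIST1H4C (ENSG00000197061.4, chr6:26103876-26104310, plus strand), the H4 gene with the most counts, went the other way. It had 17, 18 and 35 counts in the controls and 25, 18 and 17 with PA4, so that control replicate 3 was the highest library. On the log2 CPM scale with a prior count of 2, which shrinks differences of genes with few counts, control replicate 3 differed from the mean of the other controls by -2.998 in HIST1H1E, -2.03 in HIST1H1B and 0.94 in HIST1H4C. Over the 22 tested members the median of that difference was -0.20, against 0.0016 over all tested genes. It was below both other controls in 10 of the 22 members, where 36.3% of all tested genes were, and above both in 5, where 37.0% were.

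Other measures differed in control replicate 3 as well. Over the 11438 tested genes with a GC value, the same difference had a Spearman correlation of -0.560 with transcript GC content. These genes share 3 libraries and are not independent replicates. The correlation was computed for control replicate 3 alone. It does not show whether control replicates 1 and 2 have such a trend. In the 22 members the correlation was -0.020. GC was taken from the longest GENCODE transcript, which can be far longer than the listed length. In HIST1H2BH these were 2060 and 425 bases, so the value does not show that the members lack that correlation. Genes of 55% GC or more had a median difference of -0.13. RNAs that carry no poly(A) tail differed as well: RN7SL2, of the signal recognition particle, had 37, 37 and 450 counts in the controls, and RN7SL1 had 19, 19 and 136. RNA28S5, a ribosomal RNA, had 563, 527 and 74, and RN7SK, a regulator of transcription elongation, 129, 126 and 30. In the PA4 libraries RN7SL2 had 25, 23 and 25 counts and RNA28S5 310, 354 and 390. The untailed RNAs named here were picked from a list of 24, of which 8 could be tested. With PA4, 0 of these 8 were called, and their lowest edgeR adjusted p was 0.345. At an unadjusted p under 0.05 by edgeR 2 of the 8 were lower and 0 higher, against 5.29% of all tested genes in either direction. The part of GC content and of untailed RNA in the histone values was not tested.

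**Figure D3:**
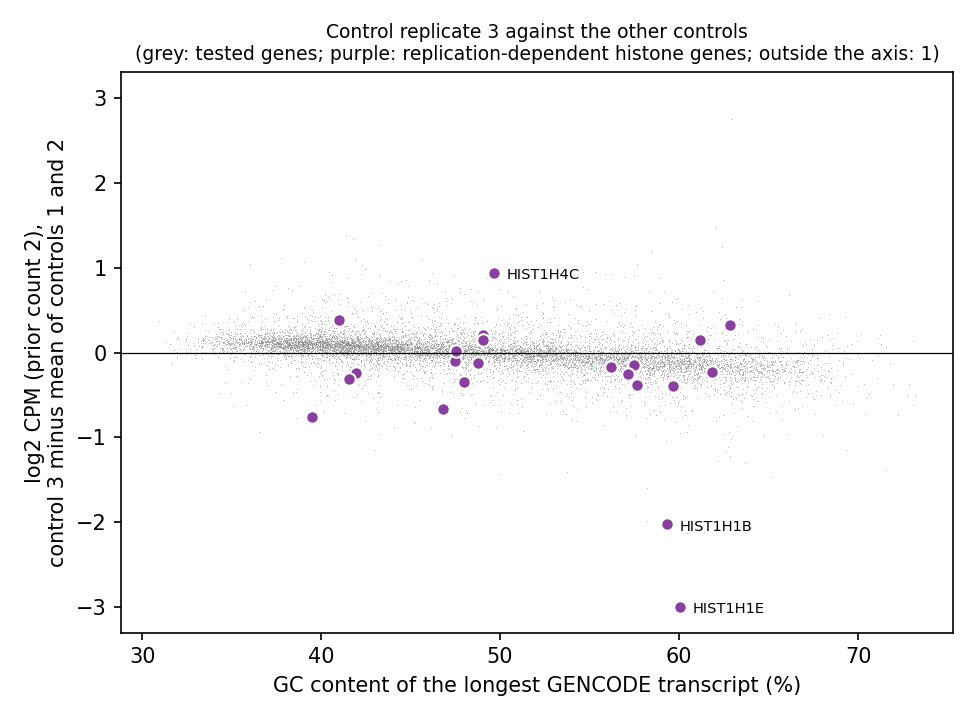
Difference in log2 CPM (with a prior count of 2) between control replicate 3 and the mean of control replicates 1 and 2 (y axis) against GC content of the longest GENCODE transcript in percent (x axis), for all tested genes (grey) and the 22 tested cluster genes (purple). HIST1H1E at -2.998 and HIST1H1B at -2.03 lie far below the other cluster genes, and HIST1H4C lies above them at 0.94.

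PA4 was then compared with control, the question of the study's design, for the genes as a whole. Summed over the 73 members, the level was 56.2, 52.5 and 46.4 CPM in control replicates 1 to 3 and 53.4, 52.7 and 50.1 CPM with PA4. The mean sum was 51.7 ± 4.95 CPM for the controls (SD, n = 3) and 52.0 ± 1.73 CPM for PA4 (SD, n = 3). Their ratio was 1.007, and all PA4 values lay within the range of the controls. Sums in bulk RNA do not tell the share of cells in S phase apart from the histone RNA per cell.

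By class, H2B summed to 28.7 ± 1.84 CPM in controls and 28.0 ± 0.768 with PA4, and H2A to 9.09 ± 1.24 and 8.63 ± 0.344 (SD, n = 3 each). For H1 the sums were 9.04 ± 1.75 and 10.2 ± 0.521 CPM, with control replicate 3 lowest at 7.09 CPM. H3 gave 2.18 ± 0.611 and 2.27 ± 0.237 CPM, and H4 gave 2.66 ± 0.154 and 2.93 ± 0.876 CPM. The differences between means were smaller than the larger SD in all 5 classes.

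No member was called in the test of single genes. Of 12107 genes tested by edgeR's quasi-likelihood test with Benjamini-Hochberg adjustment, 28 (0.231%) were called at an adjusted p under 0.05, 26 higher and 2 lower with PA4. Among the 22 members tested, 0 were called by edgeR and 0 by DESeq2, and the lowest adjusted p of edgeR was 0.983. At an unadjusted p under 0.05 there were also 0 members by either tool, against 5.29% of all genes by edgeR. These 22 held 87.2% of member counts, and the other 51 members had too few counts for the test.

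The sizes of the changes were small for the genes with many counts and loosely bounded for the rest. HIST1H2BK had a log2 fold change of 0.13 ± 0.08 (SE), with a 95% interval of -0.05 to 0.31. HIST1H1C had 0.14 ± 0.11, with an interval of -0.09 to 0.38. HIST1H2BH had -0.15 ± 0.16 and HIST3H2A -0.13 ± 0.17, and the 95% intervals of all 4 include 0. Over the 22 members the median log2 fold change was -0.18, with 8 positive and 14 negative, against -0.0040 over all tested genes. The median SE was 0.31 in the members and 0.069 over all genes. The 95% interval stayed within a 1.5-fold change in 5 of the 22 members, and in 10543 of all 12107 tested genes. It stayed within a 2-fold change in 13 of the members, and in 11718 of all tested genes. A p that misses the threshold does not show that the other members kept their level.

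**Figure D4:**
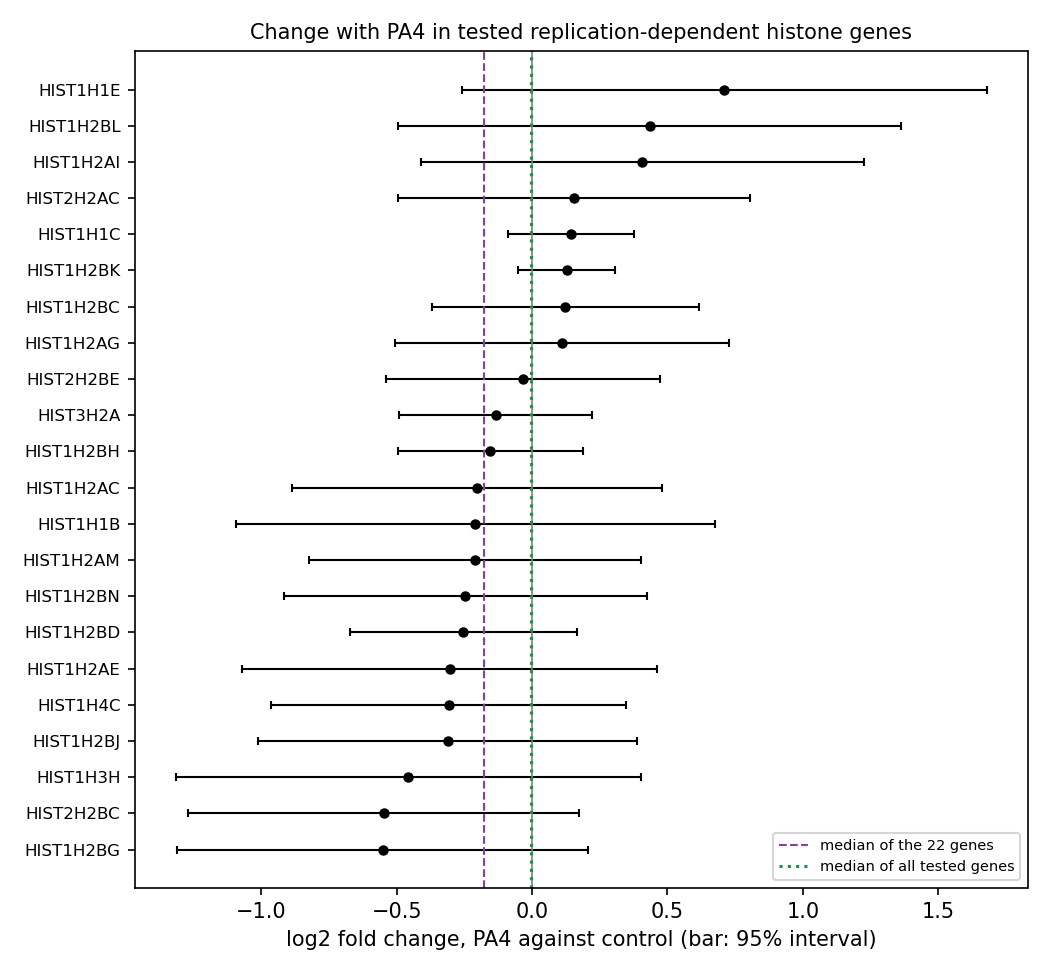
Log2 fold change of PA4 against control (x axis) for each of the 22 tested cluster genes (y axis), with 95% intervals from edgeR's quasi-likelihood fit; dashed and dotted lines are the medians of the 22 genes and of all tested genes. Every interval includes 0, and that of HIST1H1E, from -0.26 to 1.68, is the widest.

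In CPM the groups did not overlap in 1 of the 22 members, where 11.2% of all tested genes did not overlap. It was HIST2H2BC, an H2B pseudogene of chromosome 1, with 12, 12 and 16 counts in the controls and 10, 13 and 6 with PA4. The raw counts overlap, while the values scaled to library size were 0.621, 0.624 and 0.840 CPM against 0.495, 0.570 and 0.329 CPM. Its log2 fold change was -0.55 ± 0.34 (SE), with an edgeR adjusted p of 0.983. The largest fitted change was in HIST1H1E, at 0.71 ± 0.46, with an edgeR adjusted p of 0.988. Without control replicate 3 it was 0.17, and without control replicate 1 it was 1.66, at an edgeR adjusted p of 0.139. For HIST1H1B the log2 fold change was -0.21 ± 0.42, -0.66 without control replicate 3 and 0.17 without control replicate 1. The value in each of these linker histone genes thus turned on which control library was kept.

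The genes that act on histone messages gave no call either. In the list for histone mRNA transcription and processing, 0 of 28 tested genes were called in either direction and 0 passed an unadjusted p under 0.05 by edgeR, with a median log2 fold change of 0.02. SLBP, which binds the stem-loop, had 3824, 4035 and 3862 counts in the controls and 4160, 4545 and 3707 with PA4, a log2 fold change of -0.0051 ± 0.036 (SE). NPAT, which switches on histone transcription, had 1051, 1097 and 1137 counts against 1155, 1402 and 1137, a log2 fold change of 0.08 ± 0.05. Both were measured with over 1000 counts per library, and the groups overlapped in CPM.

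Histone chaperones and the S phase list were measured with the same precision. Of 23 chaperones 0 were called, and 1 was higher at an unadjusted p under 0.05, UBN1 of the HIRA complex, with a log2 fold change of 0.10 ± 0.04 and an edgeR adjusted p of 0.920. Of 45 S phase and DNA replication genes 0 were called; unadjusted p-values under 0.05 were found for 1 that was higher and 1 that was lower. RRM2, a subunit of ribonucleotide reductase, had 0.11 ± 0.03 and an edgeR adjusted p of 0.284. GINS1, of the replicative helicase, had -0.09 ± 0.03 and an edgeR adjusted p of 0.827. Of 22 listed replacement histones 20 were in the table and 8 could be tested. None of the 8 was called, 0 passed an unadjusted p under 0.05 by edgeR, and their median log2 fold change was -0.0066. The 95% intervals of all tested genes in these 4 lists stayed within a 1.5-fold change, in contrast to 5 of 22 cluster genes.

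The labelled cell type was checked by its markers. The 10 T cell markers summed to 18206 to 19442 counts in the controls and 17222 to 22445 with PA4, with none at 0. B cell markers summed to 181 to 261 counts over the 6 libraries, myeloid markers to 15 to 36 and fibroblast markers to 12 to 28, with 1 of the 3 fibroblast markers at 0. Markers of pluripotent stem cells, tested because another line is also named H9, summed to 0 to 2 counts, with 2 of 3 at 0 in every library.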

How the data were processed

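Polyadenylated RNA of 6 libraries was sequenced, 3 of control and 3 of PA4-treated H9 cells. Per the labels' protocols, a Direct-zol kit was used for RNA and Kapa mRNA HyperPrep for libraries. The authors deposited whole-number read counts per gene, not normalized, with a listed length per gene. The submitters' processing notes name Trimmomatic 0.39, fastp 0.23.2, STAR 2.7.9a and featureCounts of Subread 1.6.4, on hg38. Annotation, strand setting and the treatment of reads with several alignments are not given there or in the labels.

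All 26485 genes entered edgeR 4.0.16 (R 4.3.3): filterByExpr kept 12107, TMM factors lay between 0.997 and 1.003, and the quasi-likelihood test was run without covariates, two-sided, with Benjamini-Hochberg adjustment over all tested genes. Members were read from that fit, and those below the filter enter only sums and counts. CPM and RPKM use TMM-scaled totals. Sequences and coordinates come from GENCODE release 29 transcripts, in which all 73 members matched. The test was checked on simulated data.

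Members and lists were chosen with earlier results of these data known. Named were all members that passed the filter, with values per library for the 15 with most counts and those that varied 2-fold or more at a mean of 20 counts, plus listed genes at an unadjusted p under 0.05 and 8 fixed genes. Members named for another reason, such as HIST2H2BC, were chosen after their values were seen. Alternatives were other scaling, no filter, DESeq2 1.42.0, a replicate block, GC correction and leaving out each library.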

Additional observations from a re-analysis of the deposited data

How the results depend on the processing

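The number of cluster genes called was 0 under all 13 alternatives, which were no low-count filter, 2 other scalings, a replicate block, GC-corrected offsets, both together, DESeq2 and leaving out each library. The number of all genes called was 28 as reported, 62 without the filter, 59 with the replicate block, 98 with GC-corrected offsets, 131 with GC-corrected offsets plus the replicate block, and 17 to 74 with 1 library left out, 74 without control replicate 1. The GC correction was chosen after seeing the data. Cluster genes at an unadjusted p under 0.05 in edgeR numbered 0 as reported, 2 without the filter (HIST1H1E and HIST1H3C) and 0 to 2 with 1 library left out, and the lowest adjusted p among them was 0.139. Beside these counts, the share of all tested genes at an unadjusted p under 0.05 was 4.95% without the filter and 3.60% to 9.96% with 1 library left out. It was 9.96% without control replicate 1, where 2 of 23 members passed, and 2.69% for DESeq2, where 0 of 22 members passed. HIST1H3C, too low to test as reported, had 10, 7 and 1 counts in the controls and 19, 14 and 5 with PA4. Its means were 0.311 CPM in the controls and 0.610 CPM with PA4, and the groups overlapped. The median log2 fold change of the cluster genes was -0.18 as reported, -0.077 without the filter, where 60 members entered, and -0.24 to 0.028 with 1 library left out, the latter without control replicate 1. Their summed CPM ratio stayed between 0.958 and 1.053. Of the 22 members, 9 changed sign when 1 library was left out and under no other alternative: HIST1H1B (-0.66 to 0.17), HIST1H2AG (-0.11 to 0.47), HIST1H2AM (-0.39 to 0.11), HIST1H2BC (-0.0072 to 0.25), HIST1H2BH (-0.26 to 0.084), HIST1H4C (-0.51 to 0.11), HIST2H2AC (-0.016 to 0.37), HIST2H2BE (-0.20 to 0.10) and HIST3H2A (-0.26 to 0.022), all as log2 fold changes. The share of all tested genes that changed sign is not given here, so it cannot be told whether 9 of 22 is unusual. The cause of these shifts was not tested. Same-numbered control and PA4 libraries correlated in their deviations at 0.025, -0.0084 and 0.13, so the numbers were not taken to pair the samples; the replicate block left the count of cluster genes called at 0. The low counts of single members limit every fold change given for them.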
